A study of Mus musculus with 10 samples.

Results

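The coagulation and fibrinolysis genes are the 37 genes of the blood clotting cascade, its inhibitors, the clot-dissolving system and the vitamin K cycle that were taken by symbol from the 19414 genes of a mouse liver table. All 37 symbols were found. Bulk RNA sequencing of poly-A RNA was made from the livers of 10 female HET3 mice, 5 on the Longevity diet (LD) and 5 on the standard diet (SD). HET3 mice descend from a cross of inbred strains, so each animal has its own genotype. Each mouse is labelled as 25 months old with 5 months of feeding, and the labels do not say if that age was reached before or after the feeding. The series title calls the Longevity diet supplemented with methionine; the diets' other ingredients are not given in the labels. Mice are called by their titles, such as LD_405 or SD_502.

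The liver makes most of the proteins of blood clotting. Exposed tissue factor and the contact factors start chains of proteases that end in thrombin, which turns fibrinogen into fibrin. Antithrombin, the protein C system and tissue factor pathway inhibitor restrain thrombin formation, and plasmin, made from plasminogen, dissolves fibrin. Several of these proteins work only after a carboxylation that uses vitamin K.

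Values are CPM, reads of a gene scaled to a common total of 1e+06 reads over the listed genes, 1 library per mouse. The depth estimated from the step between low values was 24.7 to 39.0 M reads (M, 1e+06) in LD mice and 36.0 to 45.7 M reads in SD mice, with means of 29.9 ± 6.46 and 42.5 ± 4.35 M reads (SD, n = 5 each; exact two-sided permutation p = 0.0159). A pair of libraries stood apart by transcript length. In genes with transcripts over 5 kb, LD_405 lay at a median log2 difference of -1.01 from each gene's median over the 10 mice. In genes up to 1 kb it lay at 0.55. SD_502 lay at 0.44 and -0.49 in the same classes. Hepatocyte markers made up the bulk of the marker signal, with a summed level of 143009 to 196473 CPM in LD livers and 97735 to 144520 CPM in SD livers. Alb held most of this sum, on average 124794 of 165184 CPM in LD livers and 79126 of 113379 CPM in SD livers. Of the 10 hepatocyte markers, 7 had lower log2 means in LD livers. Summed sinusoidal endothelial markers were at 121 to 258 CPM in LD livers and 297 to 406.4 CPM in SD livers, and stellate cell markers at 163 to 272 CPM in LD livers and 297 to 468 CPM in SD livers, with Pdgfrb the one of 10 that fell. In bulk liver, fewer cells of a type and less RNA per cell cannot be told apart.

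Of the coagulation genes, Cpb2 fell in LD livers and none rose. A gene is said to rise or fall when limma's two-sided test on log2(CPM + 0.1) gave a Benjamini-Hochberg adjusted p under 0.05 over the 13157 genes that averaged 1 CPM or more. The test covered 34 of the 37 genes, since F13a1, Plat and Plaur had lower means. In the same test 249 genes of the whole table changed, which is 1.89% of those tested, with 162 lower (1.23%) and 87 higher (0.661%). Cpb2 and F13b were the coagulation genes whose values did not overlap between the diets, both lower in LD livers, and 3.49% of all genes tested were lower without overlap, 2.01% higher and 5.50% either way. For 10 of the 34 the unadjusted p was under 0.05, against 17.5% of all genes tested.

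The signs leaned to lower values in LD livers. The log2 difference, LD minus SD, was below 0 for 28 of 34 coagulation genes (82.4%), with a median of -0.25 and a range of -0.89 to 0.32, where 60.4% of all genes tested were below 0 with a median of -0.11. Scaling by the median of ratios shifted the median of all genes by 0.11, to 0.00. With it, 27 of the 34 were below 0 with a median of -0.14, Cpb2 was not called, and the share of all calls that were higher in LD livers was 53.7%, against 34.9% with CPM as deposited. Quantile normalization moved that share to 50.5% and gave 25 of the 34 below 0, with a median of -0.21. Together the 37 genes took 2.29 to 2.84% of each LD library and 2.62 to 3.69% of each SD library, and these ranges overlap.

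**Figure D1:**
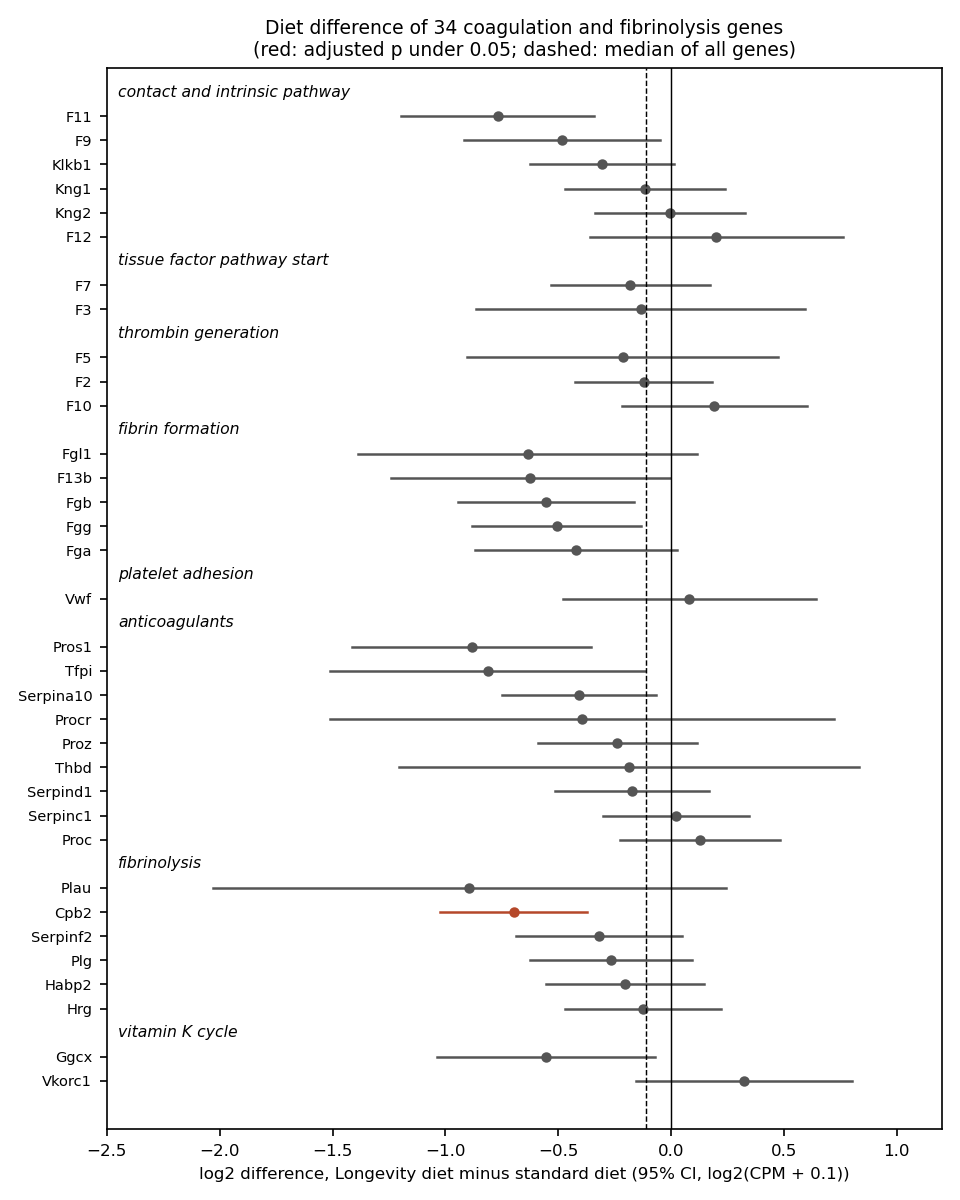
Log2 difference (LD minus SD) with its 95% interval for each of the 34 coagulation genes tested, grouped by role. Most points lie left of 0, from -0.89 for Plau to 0.32 for Vkorc1, and Cpb2, at -0.70, is the gene that passed the test.

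The outlying libraries also set the extremes here. LD_405 was the lowest of the 10 mice in 14 of the 34 genes (41.2%), as it was in 37.3% of all genes tested. SD_502 was the highest of the 10 in 14 of the 34 genes (41.2%), against 20.1% of all genes tested. Without both mice the median over the 34 genes was -0.18, 25 of them (73.5%) were below 0, and Cpb2 was still called. Of all genes tested without both mice, 51.8% were below 0, with a median of -0.02.

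**Figure D2:**
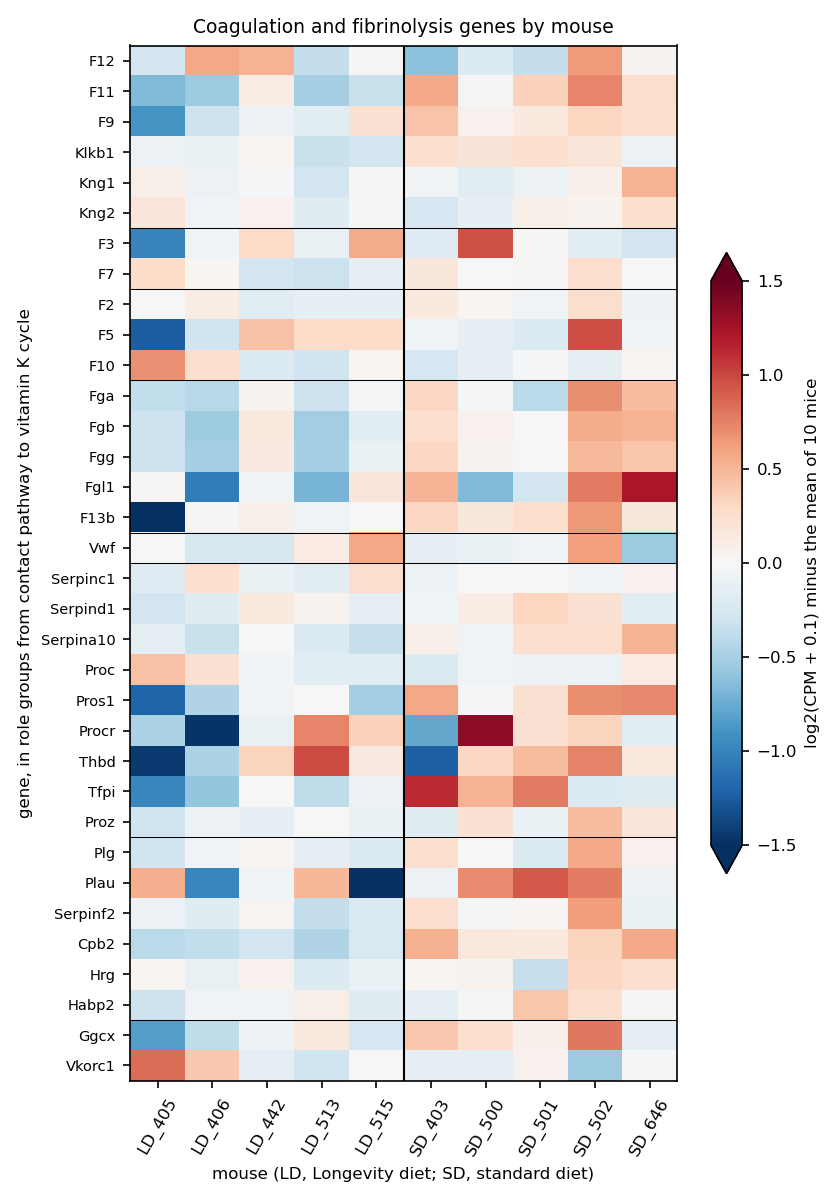
Log2(CPM + 0.1) of each of the 34 coagulation genes tested in each mouse, as the difference from that gene's mean over the 10 mice, with LD mice left of SD mice. The columns of LD_405 and SD_502 hold the lowest or highest value of many genes, and Cpb2 and F13b are the rows in which every LD mouse lies below every SD mouse.

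In the contact and intrinsic pathway none of 6 genes passed the test, 5 log2 differences were below 0 and the median was -0.21. F11 encodes factor XI, a protease that activates factor IX. It was at 27.3, 29.9, 46.9, 30.7 and 34.4 CPM in LD_405, LD_406, LD_442, LD_513 and LD_515, against 64.5, 43.9, 55.1, 71.9 and 52.1 CPM in SD_403, SD_500, SD_501, SD_502 and SD_646. The diets overlapped through a single pair of mice, LD_442 above SD_500. Its means were 33.8 ± 7.73 CPM on LD and 57.5 ± 10.9 CPM on SD (SD, n = 5 each), a log2 difference of -0.77 (SE 0.20, 95% interval -1.20 to -0.34, limma adjusted p = 0.0706). F11 passed the test in 3 of 23 other analyses, with an adjusted p of 0.0404 without LD_442.

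F9, the X-linked gene of factor IX, whose loss causes haemophilia B in humans, was at 75.3, 112, 131, 125 and 164 CPM in the LD mice in the same order, against 188, 146, 154, 175 and 166 CPM in the SD mice. LD_515 lay inside the SD values and LD_405 far below all others. The log2 difference was -0.49 (SE 0.20, limma adjusted p = 0.232). Klkb1 encodes plasma prekallikrein and lies beside F11 on chromosome 8 of the mm39 build, at positions 45719726 to 45747896, with F11 at 45694211 to 45715068, both on the minus strand. Klkb1 was at 232 to 299 CPM (median 274) in LD mice and 276 to 346 CPM (median 335) in SD mice, with SD_646 the lowest SD mouse, for a log2 difference of -0.31 (adjusted p = 0.304). The Klkb1 to F11 ratio of CPM ran from 6.37 to 10.1 in LD mice and from 4.61 to 7.63 in SD mice, and overlapped.

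Kng1 and Kng2 encode kininogens, the carriers of bradykinin that bind prekallikrein and factor XI. These genes are close paralogs, and how reads shared between them were assigned is not given in the sources used here. Kng1 was at 2462 to 3193 CPM in LD mice and 2669 to 4308 CPM in SD mice, and its log2 difference was -0.12 (95% interval -0.47 to 0.24). Kng2 was at 320.2 to 410.5 CPM and 304 to 432 CPM, with a log2 difference of -0.01 (95% interval -0.34 to 0.33). The Kng2 to Kng1 ratio stayed within 0.117 to 0.130 in LD mice and 0.1003 to 0.136 in SD mice. F12, the gene of factor XII that starts the contact pathway, varied widely within each diet, from 229.9 to 440.4 CPM in LD mice and from 191 to 455 CPM in SD mice. Its log2 difference was 0.20 (SE 0.26, adjusted p = 0.722).

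The tissue factor genes and the genes of thrombin generation gave no call. F3 encodes tissue factor, the membrane receptor for factor VII, and was low in bulk liver, at 1.92 to 5.81 CPM in LD mice and 3.23 to 7.71 CPM in SD mice, with SD_500 alone above 4 CPM among SD mice. Its log2 difference was -0.14 (95% interval -0.86 to 0.59). F7, the gene of factor VII, was at 143, 120.1, 97.5, 94.5 and 107 CPM in LD mice, against 133, 118, 119, 142 and 118 CPM in SD mice. LD_405 held the highest F7 value of all mice, and the log2 difference was -0.18 (SE 0.16, adjusted p = 0.599).

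F2 encodes prothrombin, the precursor of thrombin, and was even across mice. It was at 1569.6 to 1886 CPM in LD mice and 1652 to 2091 CPM in SD mice, with coefficients of variation of 7.90% and 10.0% and a log2 difference of -0.12 (95% interval -0.42 to 0.18). F10, the gene of factor X, whose active form cuts prothrombin, was at 1009, 746, 545, 511 and 646.4 CPM in LD mice, against 528, 578, 621, 574 and 642 CPM in SD mice. LD_405, LD_406 and LD_515 lay above every SD mouse, LD_515 only just, and LD_513 below every one. The log2 difference was 0.19 (SE 0.19, adjusted p = 0.635), and 0.04 without LD_405.

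F5 encodes factor V, the cofactor of factor X, and has a transcript of 7430 bases. It was at 138, 264, 439, 392 and 393 CPM in LD mice, against 312, 297, 280.5, 631 and 314 CPM in SD mice. The lowest and the highest mouse were LD_405, at a log2 difference of -1.41 from the other LD mice, and SD_502, at 1.07 from the other SD mice, the libraries that also stood lowest and highest in long transcripts generally. Whether transcript length bears on these values was not tested. The diet difference was -0.21 (SE 0.32, adjusted p = 0.759) and took the other sign, 0.07, without LD_405.

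**Figure D3:**
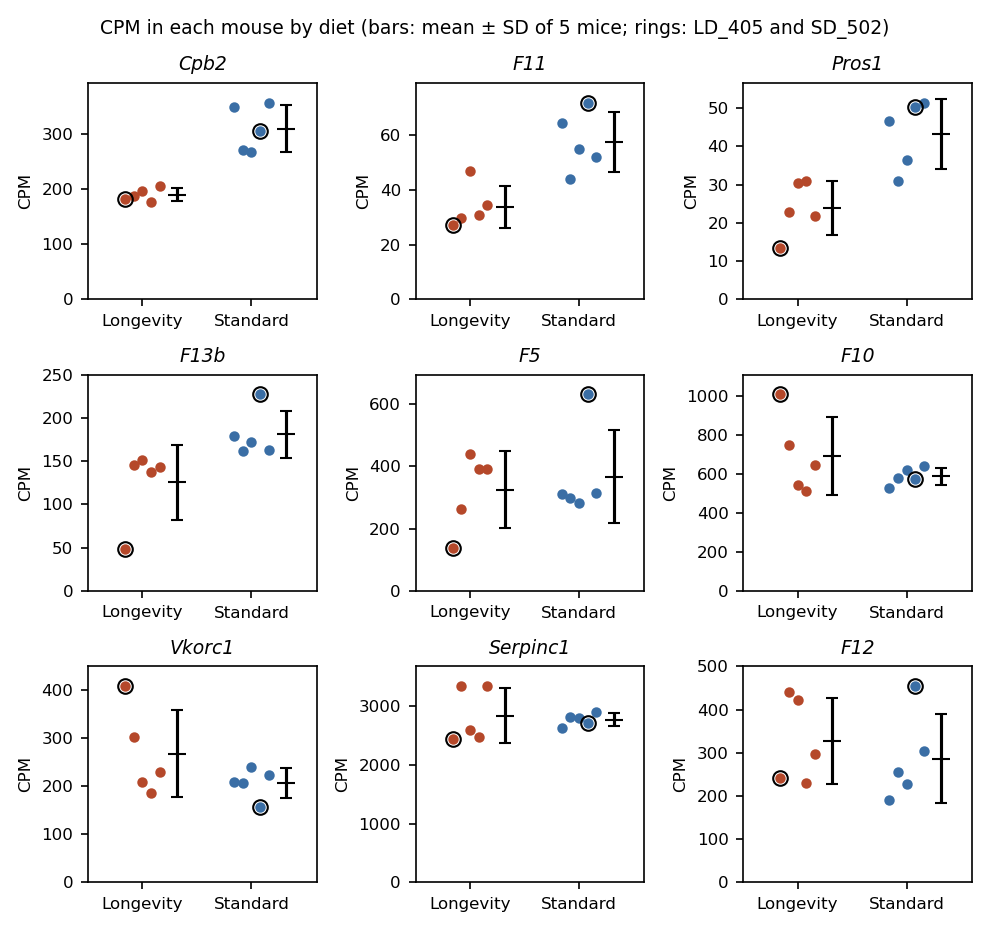
CPM of 9 genes in every mouse, LD left of SD, with axes from 0, bars for the mean ± SD of 5 mice and rings around LD_405 and SD_502. Cpb2 lies at 176 to 206 CPM in LD mice and 268 to 356 CPM in SD mice with a gap between them, F13b is also apart between the diets, and the other 7 genes overlap.

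Fibrin formation had the lowest median of the roles with more than 1 tested gene, -0.55 over 5 genes, all below 0 and none past the test. Fibrinogen is made of 3 chains encoded side by side on mm39 chromosome 3, Fgg at 82915031 to 82922356 and Fga at 82933383 to 82940934 on the plus strand, and Fgb at 82947448 to 82957170 on the minus strand. The promoters of the 3 genes were searched for known liver and acute-phase motifs and are shown. They come from RefSeq on GRCm38.p6, as the 250 bases before each start read 5′ to 3′ on the gene's strand. Capitals mark CTGGGAA, the core of the interleukin-6 response element, TTGCNNAA, a C/EBP motif, and GTTAAT, a half-site of HNF1, found on either strand. None of the marked matches overlap.
Fga, chr3:83025903-83026152, plus strand: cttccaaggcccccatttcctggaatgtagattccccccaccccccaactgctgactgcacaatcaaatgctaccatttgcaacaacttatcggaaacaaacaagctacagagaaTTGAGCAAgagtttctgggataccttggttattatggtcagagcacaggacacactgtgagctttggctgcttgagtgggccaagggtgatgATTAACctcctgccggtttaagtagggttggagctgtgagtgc
Fgb, chr3:83049864-83050113, minus strand: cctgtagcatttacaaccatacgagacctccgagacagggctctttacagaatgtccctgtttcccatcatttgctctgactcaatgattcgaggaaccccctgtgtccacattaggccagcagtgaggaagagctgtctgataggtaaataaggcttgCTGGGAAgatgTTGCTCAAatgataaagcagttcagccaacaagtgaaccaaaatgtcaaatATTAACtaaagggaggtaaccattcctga
Fgg, chr3:83007474-83007723, plus strand: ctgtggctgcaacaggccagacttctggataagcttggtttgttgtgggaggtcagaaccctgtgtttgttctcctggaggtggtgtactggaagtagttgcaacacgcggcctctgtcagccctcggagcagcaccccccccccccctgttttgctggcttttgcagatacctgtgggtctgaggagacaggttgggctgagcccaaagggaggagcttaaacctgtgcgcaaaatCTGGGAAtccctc

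Fgb held all 3 motifs, with CTGGGAA from -91 to -85, the C/EBP match from -80 to -73 and the HNF1 half-site from -29 to -24, counted from the start. Fga held the C/EBP and HNF1 motifs and Fgg the interleukin-6 core alone, from -13 to -7. Windows of the same length before all 32851 RefSeq starts held CTGGGAA in 9.10%, TTGCNNAA in 9.56% and GTTAAT in 6.43%. Promoters were listed for 28 of the 37 coagulation genes. Of these genes 4 held CTGGGAA (F9, Fgb, Fgg and Tfpi), 11 held TTGCNNAA and 5 held GTTAAT (Fga, Fgb, F13b, Proz and Habp2). A match describes the letters and not a site in use.

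Fgb, the beta chain, was at 2748, 2359, 3766, 2383 and 3044 CPM in LD mice, against 4034, 3579.7, 3407, 4997 and 4897 CPM in SD mice. LD_442 was above the lower pair of SD mice and the other LD mice were below all SD mice. Means were 2859.8 ± 580.4 CPM on LD and 4183 ± 735 CPM on SD (SD, n = 5 each), a log2 difference of -0.55 (SE 0.18, limma adjusted p = 0.137). Fgg, the gamma chain, followed the same order of mice within LD and within SD. It was at 2484, 2166, 3379.9, 2174 and 2878 CPM in LD mice, against 3806, 3179.7, 3082, 4313 and 4111 CPM in SD mice, a log2 difference of -0.51 (SE 0.17, adjusted p = 0.154). Again LD_442 alone reached into the SD range.

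Fga, the alpha chain, was at 3225, 3124, 4311, 3360.0 and 4109 CPM in LD mice, against 5157, 4124, 3150.3, 6767 and 5721 CPM in SD mice. SD_500 and SD_501 were among the LD values and SD_502 was above all mice. The log2 difference was -0.42 (SE 0.21, adjusted p = 0.311). The ratio of Fgg to Fgb varied little, from 0.897 to 0.946 in LD mice and from 0.839 to 0.943 in SD mice, a coefficient of variation of 3.63% over the 10 mice. Fgb to Fga ran from 0.709 to 0.874 in LD mice and from 0.739 to 1.08 in SD mice, with a coefficient of 13.2%. The summed chains were at 8456, 7649, 11458, 7917 and 10031 CPM in LD mice and 12997, 10883, 9639, 16077 and 14729 CPM in SD mice.

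**Figure D4:**
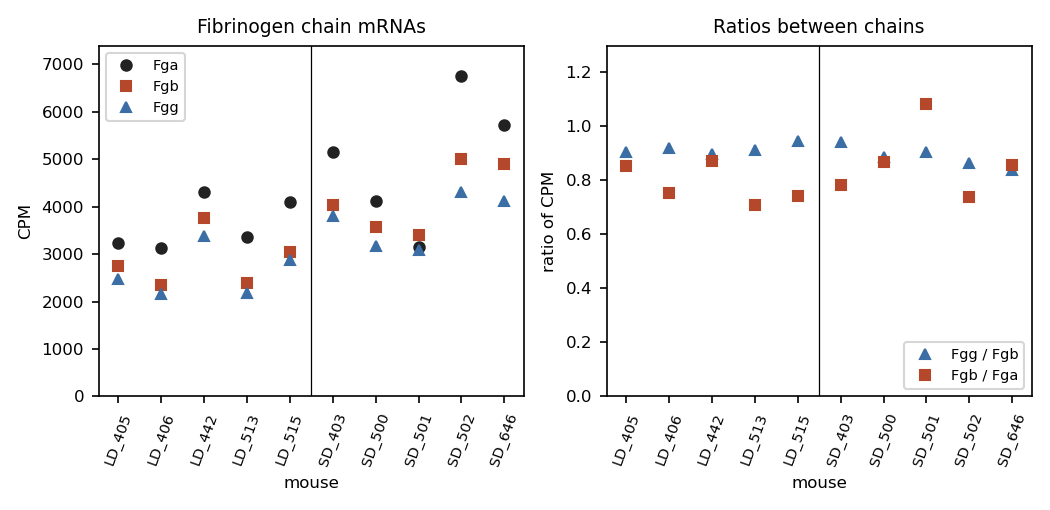
CPM of Fga, Fgb and Fgg in each mouse (left) and the CPM ratios of Fgg to Fgb and of Fgb to Fga (right), LD mice left of SD mice. Fgb and Fgg move together from mouse to mouse, Fga departs from them in SD_501, where it is at 3150.3 CPM and the Fgb to Fga ratio at 1.08, and LD_442 has the highest level of each chain among LD mice.

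Fgl1 encodes a fibrinogen-like protein secreted by the liver, for which a role in clotting is not settled. It was at 526, 250.5, 502.4, 320.3 and 585 CPM in LD mice, against 739, 328, 428, 891 and 1212 CPM in SD mice, a log2 difference of -0.63 (SE 0.35, adjusted p = 0.368). The spread within SD was wider than the gap between the diets. Factor XIII crosslinks fibrin and has a catalytic A subunit and a carrier B subunit. F13b, the B subunit, was at 48.6, 146, 152, 138 and 143 CPM in LD mice, against 179, 162, 173, 227 and 163 CPM in SD mice. No LD mouse reached an SD mouse, yet LD_405 and SD_502 were each far from the rest of their diet. The log2 difference was -0.62 (SE 0.29, adjusted p = 0.279), and -0.31 without LD_405. F13a1, the A subunit, known mainly from platelets and macrophages, was at 0 to 0.405 CPM in LD mice and 0 to 0.576 CPM in SD mice, with 5 of 10 mice under the level of 3 reads, and was not tested.

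Vwf encodes von Willebrand factor, which tethers platelets to the vessel wall and comes from endothelium. It was at 6.48, 5.50, 5.50, 7.09 and 9.77 CPM in LD mice, against 6.00, 6.09, 6.30, 10.0 and 4.43 CPM in SD mice. The diets overlapped fully, with a log2 difference of 0.08 (95% interval -0.48 to 0.64). All 10 vascular endothelial markers had log2 differences below 0, median -0.51, none past the test, with summed levels of 94.6 to 236 CPM in LD livers and 178 to 229 CPM in SD livers. All 10 sinusoidal markers were also below 0, with a median of -0.83 and none past the test. Their part in the values of the endothelial coagulation genes was not tested.

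Among the anticoagulants none of 9 genes passed the test, 7 log2 differences were below 0 and the median was -0.24. Leaving out 1 mouse moved that median to -0.44 without SD_403, -0.41 without LD_513, and -0.15 without LD_406 or SD_502. Serpinc1 encodes antithrombin, the main inhibitor of thrombin and factor X. It was at 2431, 3331, 2595, 2477 and 3343 CPM in LD mice, against 2629, 2804, 2801, 2703 and 2902 CPM in SD mice. LD mice lay on both sides of a narrow SD range, with coefficients of variation of 16.3% and 3.79%, and the log2 difference was 0.02 (95% interval -0.30 to 0.34). Serpind1, the gene of heparin cofactor II, another thrombin inhibitor, was at 472 to 636 CPM in LD mice and 514 to 718 CPM in SD mice (log2 difference -0.17, adjusted p = 0.605).

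Serpina10 encodes the protein Z-dependent inhibitor of factor X, and Proz encodes its cofactor, protein Z. Serpina10 was at 205, 179, 227, 196 and 178 CPM in LD mice, against 241, 218, 267, 267 and 322 CPM in SD mice. LD_442 was above SD_500 and the diets were otherwise apart, with a log2 difference of -0.41 (SE 0.16, adjusted p = 0.199). Proz was at 259 to 316 CPM in LD mice and 280.1 to 439 CPM in SD mice, with a log2 difference of -0.24 (SE 0.16, adjusted p = 0.470). Proz lies next to F7 and F10 on mm39 chromosome 8, in the order F7 (13076034 to 13085809), F10 (13087308 to 13106676) and Proz (13110914 to 13126026), all on the plus strand. These neighbours had differences of unlike sign, -0.18 for F7, 0.19 for F10 and -0.24 for Proz, none past the test. Without LD_405 the F10 difference was 0.04. The ratio of F10 to F7 was 5.41 to 7.08 in LD mice and 3.97 to 5.43 in SD mice, overlapping narrowly.

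Proc and Pros1 encode protein C and its cofactor protein S, which inactivate factors V and VIII. Pros1 was at 13.5, 22.8, 30.3, 31.1 and 21.8 CPM in LD mice, against 46.7, 30.8, 36.5, 50.4 and 51.4 CPM in SD mice. SD_500 was just below LD_513 and the diets were otherwise apart. Means were 23.9 ± 7.17 CPM on LD and 43.2 ± 9.07 CPM on SD (SD, n = 5 each), a log2 difference of -0.88 (SE 0.25, 95% interval -1.41 to -0.35, limma adjusted p = 0.0904). Pros1 passed the test in 2 of 23 other analyses. Proc, at 775, 669, 555, 512 and 505 CPM in LD mice and 488, 550.0, 537, 536 and 620.1 CPM in SD mice, had a log2 difference of 0.13 (SE 0.16, adjusted p = 0.721) and so differed in sign from its cofactor gene.

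Thrombomodulin (Thbd) and the endothelial protein C receptor (Procr) help activate protein C on vessel walls, and Tfpi encodes the inhibitor of the tissue factor complex. Tfpi was at 1.82, 2.43, 3.69, 2.81 and 3.46 CPM in LD mice, against 8.14, 5.32, 6.41, 3.18 and 3.23 CPM in SD mice. SD_502 and SD_646 were within the LD values and the other SD mice above them, with a log2 difference of -0.81 (SE 0.32, adjusted p = 0.213). Thbd was at 0.973 to 5.61 CPM in LD mice and 1.14 to 4.78 CPM in SD mice, with a log2 difference of -0.19 (95% interval -1.21 to 0.83). Procr was at 0.323 to 1.85 and 0.591 to 2.87 CPM, with a log2 difference of -0.39 (95% interval -1.51 to 0.72). The intervals of Thbd and Procr span both directions, while that of Tfpi, -1.51 to -0.12, lies below 0. These intervals are not adjusted for the number of genes, and Tfpi did not pass the test. Of all genes tested, 17.5% had an unadjusted limma p under 0.05.

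In fibrinolysis 6 of 8 genes could be tested. Cpb2 fell, the other 5 did not pass, all 6 log2 differences were below 0 and the median was -0.29 (-0.18 without SD_502). Cpb2 encodes carboxypeptidase B2, also called thrombin-activatable fibrinolysis inhibitor, a liver proenzyme that removes lysines from fibrin and so slows its dissolution by plasmin. The gene (ENSMUSG00000021999.10) lies on mm39 chromosome 14, positions 75479727 to 75520995 on the plus strand. It was at 182, 187, 197, 176 and 206 CPM in LD_405, LD_406, LD_442, LD_513 and LD_515, against 349, 270.1, 268, 304 and 356 CPM in SD_403, SD_500, SD_501, SD_502 and SD_646. Every LD mouse was below every SD mouse, and the coefficients of variation were 6.31% and 13.6%.

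Mean Cpb2 was 189.6 ± 11.96 CPM in LD livers and 309 ± 42.0 CPM in SD livers (SD, n = 5 each), a log2 difference of -0.70 (SE 0.15, 95% interval -1.02 to -0.37, limma adjusted p = 0.0341), or 1.62-fold lower in LD livers. The call was near its threshold. It held in 12 of 23 other analyses and was lost in 11, with log2 differences of -0.75 to -0.59 and adjusted p-values of 0.0147 to 0.123 over all 23. Leaving out LD_406, LD_442, LD_513, LD_515, SD_403, SD_500 or SD_646 ended the call, with adjusted p-values of 0.0525 to 0.1004 and log2 differences of -0.75 to -0.64 over the 10 mice left out in turn. LD_405 and SD_502 lay near their diets' means for Cpb2, at log2 differences of -0.08 and -0.02 from the other mice of their diet. The 250 bases before the Cpb2 start are shown because this is the gene that passed the test; they come from RefSeq on GRCm38.p6 and held none of the 3 motifs searched.
Cpb2, chr14:75242037-75242286, plus strand: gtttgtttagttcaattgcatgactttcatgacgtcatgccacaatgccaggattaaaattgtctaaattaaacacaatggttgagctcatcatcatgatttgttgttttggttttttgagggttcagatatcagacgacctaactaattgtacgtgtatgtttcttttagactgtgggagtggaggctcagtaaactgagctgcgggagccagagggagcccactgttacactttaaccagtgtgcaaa

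Plg encodes plasminogen and Serpinf2 encodes alpha-2-antiplasmin, the fast inhibitor of plasmin. Plg was at 1978, 2344, 2467, 2207 and 2093 CPM in LD mice, against 2859, 2439, 2096, 3589 and 2534 CPM in SD mice, a log2 difference of -0.27 (SE 0.17, adjusted p = 0.429). Serpinf2 was at 825 to 1086 CPM in LD mice and 987 to 1635 CPM in SD mice, a log2 difference of -0.32 (SE 0.17, adjusted p = 0.356). SD_502 was the highest mouse for both. Hrg encodes histidine-rich glycoprotein, a plasma protein that binds plasminogen and heparin, and sits beside Kng2 and Kng1 on mm39 chromosome 16, at 22769822 to 22780406. It was at 724 to 874 CPM in LD mice and 659.6 to 1040.4 CPM in SD mice, a log2 difference of -0.12 (95% interval -0.47 to 0.22). Habp2, the gene of a hyaluronan-binding protease that can cut factor VII, was at 139 to 183 CPM and 155 to 229.8 CPM, a log2 difference of -0.20 (95% interval -0.55 to 0.15).

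The plasminogen activators and their receptor were scarce in bulk liver. Plau, the gene of urokinase, was at 2.15, 0.687, 1.37, 2.08 and 0.231 CPM in LD mice, against 1.36, 2.43, 2.83, 2.53 and 1.37 CPM in SD mice. Its log2 difference of -0.89 was the lowest of the 34, with an SE of 0.53 and an adjusted p of 0.402. Plat, the gene of tissue plasminogen activator, was at 0.0512 to 0.432 CPM in LD mice and 0, 0.241, 5.22, 0.325 and 0 CPM in SD mice, so that SD_501 alone was above 1 CPM and 3 of the 10 mice were under the level of 3 reads. Plaur, the urokinase receptor, was at 0.566 to 1.49 CPM in LD mice and 0.375 to 1.42 CPM in SD mice and was not tested. Kupffer cell and macrophage markers, of which 9 of 10 had log2 differences below 0 and none passed the test, summed to 212 to 726 CPM in LD livers and 376 to 666 CPM in SD livers. Their part in the Plau and Plaur values was not tested.

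The vitamin K cycle had genes of unlike sign. Ggcx encodes the carboxylase that modifies the clotting factors, and Vkorc1 encodes the reductase that recycles vitamin K and is blocked by warfarin. Ggcx was at 26.6, 36.1, 44.7, 52.6 and 39.8 CPM in LD mice, against 62.8, 56.5, 49.7, 81.6 and 42.8 CPM in SD mice, a log2 difference of -0.55 (SE 0.22, adjusted p = 0.220). LD_442 and LD_513 reached into the SD range. Vkorc1, with a transcript of 748 bases, was at 409, 303, 209, 186 and 229 CPM in LD mice, against 209, 206, 239, 157 and 224 CPM in SD mice, a log2 difference of 0.32 (SE 0.22, adjusted p = 0.473). The highest and lowest Vkorc1 mice were LD_405 and SD_502, the libraries that were highest and lowest in short transcripts, and whether length bears on them was not tested. With each library's slopes by transcript length and GC content removed, the median of Ggcx and Vkorc1 was -0.22, against -0.12 with CPM as deposited. Of the 7 vitamin K-dependent proteins (F2, F7, F9, F10, Proc, Pros1 and Proz), 5 had log2 differences below 0 and 2 above, with a median of -0.18 and none past the test.

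Compared per kilobase of transcript, the levels of the genes differed by orders of magnitude. Each length was that of the gene's longest annotated principal transcript, 1695 bases for Fgg and 3810 bases for Fgb. The order of the genes depends on that choice, and which transcripts were present in these livers was not tested. By the mean over all 10 mice Fgg ranked first, at 1544 ± 305 CPM per kb in LD livers and 2182 ± 324 in SD livers, followed by Kng1 at 1589 ± 154 and 1743 ± 359, Fga at 1402 ± 211 and 1927 ± 542, Fgb at 751 ± 152 and 1098 ± 193, and Plg at 804 ± 70.5 and 981 ± 205. In LD livers alone Kng1 was above Fgg and Plg above Fgb. Kng1, Fga and Fgg were within their spread of each other in LD livers, and Fgb and Plg in both diets. Cpb2 ranked 15 of 37, at 128 ± 8.10 CPM per kb in LD livers and 209 ± 28.4 in SD livers. Pros1 stood low among the plasma proteins, at 7.23 ± 2.17 and 13.1 ± 2.75, and Vwf, Plau, Plaur, Plat and F13a1 came last, all under 1 CPM per kb. Thbd and Procr, ranked 31 and 32 of 37, were also under 1 CPM per kb in both diets.

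The wider pathway was read from a list of 35 other coagulation and fibrinolysis genes, receptors and platelet proteins, of which 33 were found and 28 tested. None passed the test, 19 log2 differences were below 0 with a median of -0.35 (-0.23 without SD_502), and 10 had an unadjusted p under 0.05. The smallest p-values belonged to Serpinf1, Plgrkt, Tfpi2, S100a10, F8 and F2r. Serpinf1, which lies near Serpinf2 on chromosome 11 and encodes an anti-angiogenic serpin, was at 519 ± 93.2 CPM in LD livers and 778 ± 122 CPM in SD livers (log2 difference -0.59, adjusted p = 0.104). Plgrkt, a plasminogen receptor, and S100a10, a subunit of another, differed by -0.77 (adjusted p = 0.115) and by -0.95 (adjusted p = 0.1503) on the log2 scale. Tfpi2, an inhibitor related to Tfpi, was at -0.62 on the log2 scale (adjusted p = 0.126), near F2r, a thrombin receptor, at -0.79 (adjusted p = 0.185).

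F8 encodes factor VIII, the cofactor of factor IX, which in liver comes from sinusoidal endothelial cells. It was at 3.82 ± 1.57 CPM in LD livers and 7.01 ± 2.04 CPM in SD livers (SD, n = 5 each), with a log2 difference of -0.90 (SE 0.31, adjusted p = 0.151). The sinusoidal marker sums given above also lay lower in LD livers, and their part in this value was not tested. Platelet and megakaryocyte markers, 4 of 10 of them tested and none called, summed to 10.7 to 21.8 CPM in LD livers. In SD livers they summed to 49.7 CPM in SD_403 and to 17.7 to 29.4 CPM in the other mice. Treml1 was listed at 0 in all LD mice and in SD_500, SD_502 and SD_646. It was at 0.460 and 0.139 CPM in SD_403 and SD_501. Neutrophil and monocyte markers summed to 4.31 to 14.9 CPM in LD livers and 8.44 to 95.5 CPM in SD livers. SD_403 and SD_646 were at 95.5 and 94.6 CPM, against 8.44 to 25.9 CPM in the other SD mice. Of 7 tested, 1 fell, S100a8. Mpo was listed at 0 in all LD mice. It was at 7.75 and 5.21 CPM in SD_403 and SD_646, and at 0.0876 to 0.175 CPM in the other SD mice. Ly6g was near 0 in both diets, at 0 to 0.461 CPM in LD mice and 0 to 0.285 CPM in SD mice.

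Other proteins that the liver secretes into plasma gave a comparison for the coagulation genes. Of 33 tested, C9 fell and none rose, with 23 log2 differences below 0 and a median of -0.08, which was -0.12 without LD_405 and 0.03 with median-of-ratios scaling. C9, the last component of the complement attack complex, was at 38.5 ± 11.98 CPM in LD livers and 237 ± 60.1 CPM in SD livers, a log2 difference of -2.63 (SE 0.24, limma adjusted p = 5.85e-04). None of 16 hepatocyte transcription factors passed the test, with a median log2 difference of 0.18. Of the 10 hepatocyte markers 1 fell and 7 had log2 differences below 0, with a median of -0.16, while their summed CPM was higher in LD livers, overlapping through LD_513 and SD_502. The marker that fell was Cps1, a urea cycle enzyme. The part of this sum in the CPM of the coagulation genes was not tested.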

How the data were processed

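Liver poly-A RNA of 10 mice was sequenced, 5 per diet, 1 library each. Per the submitters' processing notes, STAR, Partek and the mm39 genome were used; versions, the quantifier, the annotation and strandedness are not given in the sources used here. The authors deposited CPM with 0.0001 added, which was taken off. Between 84.6 and 88.1% of low values lay within 0.1 of a whole read at the estimated depth, so they were not treated as counts; depth and a floor of 3 reads rest on this estimate and cover counting error only.

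Genes averaging 1 CPM or more were compared as log2(CPM + 0.1) with limma 3.58.1 (trend and robust, statmod 1.5.0, R 4.3.3), diet being the sole term, two-sided, with Benjamini-Hochberg adjustment at 0.05. Fold changes on this scale understate low genes. The script was tested on simulated data. Limma's p-values set each diet difference against the spread between these mice, moderated over the genes tested.

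The members and all lists were chosen with earlier results of these data known. Every member is named; of the wider pathway, the called genes and those with the smallest p up to 6; of transcription factors and plasma proteins, called genes; of cell markers, only list sums and markers at or near 0. The markers Alb, Cps1, Pdgfrb and S100a8 were named after their values were seen. Coordinates are the deposited table's, with the end 1 below its stop, as in 15 of 15 mitochondrial genes compared with GENCODE M21. That release gave transcript lengths for 97.1% of genes, from the longest principal transcript, or the longest of any kind where none was marked as principal. Strandedness being unstated, reads of overlapping genes cannot be told apart for Kng2, F5, Serpinc1, Serpind1, Plg and Habp2, whose partners had at most 25.2 CPM. Other scalings, filters, pseudocounts, weights, models and left-out mice were tried.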

Additional observations from a re-analysis of the deposited data

Results flagged for a closer look

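Of 74 groups of 5 values, 37 genes in each diet, 6 held a mouse set apart from the other 4 of its diet by Dixon's test at the 95% level, where chance alone gives about 1 in 20. In LD mice this was F13b in LD_405, at 48.6 CPM against 138 to 152 CPM in the others. In SD mice it was F13b in SD_502, at 227 CPM against 162 to 179 CPM, F5 in SD_502, at 631 CPM against 280.5 to 314 CPM, and Klkb1 in SD_646, at 276 CPM against 332 to 346 CPM. It was also F3 in SD_500, at 7.71 CPM against 3.23 to 3.97 CPM, and Plat in SD_501, at 5.22 CPM against 0 to 0.325 CPM. LD_405 and SD_502 are the libraries with the strongest trend by transcript length. Cpb2, F11 and Pros1 had no such mouse in either diet.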

How the results depend on the processing

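No paired analysis was possible because the diets share no mouse number. All settings below gave 0 coagulation genes that rose. Those that fell numbered 0 with no filter, with median-of-ratios scaling, with the leading digit of the mouse number as a term and without limma's trend and robust options, and 3 (Cpb2, F11 and Pros1) with quantile normalization and with length and GC slopes removed. Leaving out 1 mouse gave 0 to 1, the 1 being Cpb2 without LD_405, SD_501 or SD_502 and F11 without LD_442. Over all genes, where CPM as deposited gave 87 higher and 162 lower, median-of-ratios scaling gave 154 higher, quantile normalization 151 higher, weights per library 329 and 476, the leading digit 28 and 70, length and GC slopes removed 161 and 304, and LD_405 and SD_502 both left out 338 and 309. Leaving out 1 mouse gave 26 to 152 higher and 57 to 228 lower, with both highest counts without LD_405 and the lowest without LD_406 (higher) and SD_403 (lower). The cause was not tested.

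Signs turned in 8 of the genes tested, whose differences with CPM as deposited lay between -0.21 and 0.13, and 26 kept their sign. Kng2 was at 0.11 with median of ratios, 0.0097 without the 50 most abundant genes, 0.0027 with weights, 0.058 with the leading digit, 0.036 with slopes removed, and -0.069 to 0.057 with 1 mouse left out. Thbd was at 0.13 with quantiles, 0.12 with weights, 0.30 with the leading digit, 0.31 without both mice, and -0.52 to 0.15 with 1 left out. F3 was at 0.13 with quantiles, 0.039 without both mice, and -0.29 to 0.10 with 1 left out. F5 was at 0.16 with weights, 0.28 without both mice, and -0.35 to 0.067 with 1 left out. Kng1 was at 0.011 with quantiles and Proc at -0.048 with slopes removed. With 1 mouse left out, Serpinc1 ran from -0.042 to 0.072 and Vwf from -0.054 to 0.24. Removing slopes and leaving out both mice were chosen after seeing the data. With 5 mice per diet, low genes such as Procr, Thbd and Plau have intervals over 2 log2 units wide.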
